A study of Mus musculus with 16 samples.

Results

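Complex I (NADH:ubiquinone oxidoreductase) is the first enzyme of the mitochondrial respiratory chain. It takes electrons from NADH, passes them to ubiquinone and pumps protons across the inner mitochondrial membrane. Most of its subunits are encoded in the nucleus, but the 7 hydrophobic subunits at the core of its membrane arm, ND1, ND2, ND3, ND4, ND4L, ND5 and ND6, are encoded by the mitochondrial genome. That genome is transcribed from both strands as long precursors, from which the mRNAs are cut out, so neighbouring genes begin as parts of the same RNA. Haematopoietic stem cells (HSCs) are known for low mitochondrial respiration at rest. The genes mt-Nd1, mt-Nd2, mt-Nd3, mt-Nd4, mt-Nd4l, mt-Nd5 and mt-Nd6 are described here, 7 of the 13 mitochondrial mRNA genes and of the 46078 genes counted.

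The family is defined by function, but it was selected on measured values too. mt-Nd2 and mt-Nd6 stood out in central HSCs between the genotypes and, in WT mice, between the compartments, which led to the choice of the family. Member values from both of these comparisons, and from the interaction that contains them, are therefore a description without p-values. Tests are given for the other comparisons, endosteal against central HSCs of Gfra2-/- mice and endosteal HSCs of Gfra2-/- against WT mice. Each of these still shares a group of libraries with the comparisons that led to the choice.

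Pools of 30 HSCs, defined as LSK CD48-CD150+ and sorted by flow cytometry, came from untreated C57/Bl6 mice, whose age is not given in the sources used here. WT mice carry intact Gfra2, and Gfra2-/- mice lack this receptor for neurturin, which cholinergic neurons need to survive, in all of their cells. Endosteal HSCs came from the bone fraction and central HSCs from the marrow fraction of tibia, femur and humeri, and nothing says how many mice gave the cells of a pool. There were 4 WT endosteal, 4 WT central, 4 Gfra2-/- endosteal and 3 Gfra2-/- central libraries, lettered here in the order of the columns. Where separate pools came from the same animals, p-values measure only the spread between these libraries.

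Counts on genes ranged from 826487 to 18550008 per library, and all 4 WT central libraries (826487 to 3367289) were shallower than the other 11. The mitochondrial share of gene counts ranged from 3.24% to 8.24%. Spike-in RNA made up less than 0.5% of the gene and spike-in counts in 4 libraries, 1 of each group. All 8 HSC markers examined were detected in every group, with summed levels from 1448 to 2679.6 CPM (counts scaled to a library total of 1000000). Markers of other cells were summed likewise. The 5 myeloid markers had 317 to 2797 CPM in WT central libraries, with Elane and Mpo at 0 there, 384 to 762 in WT endosteal, 376 to 562 in Gfra2-/- endosteal and 420 to 1562 in Gfra2-/- central libraries. Erythroid markers reached 580 CPM, megakaryocyte markers 620 and B lymphoid markers 1189 (lowest libraries 69.4 and 0.116), each with its highest library in Gfra2-/- endosteal HSCs. T lymphoid markers ranged from 0 to 35.5 CPM, and stromal and endothelial markers from 21.5 to 161, with Cdh5 at 0 throughout. Their part in the results was not tested. Gfra2 had 0 to 4 counts in WT libraries and 0 to 2 in all Gfra2-/- libraries but the endosteal libraries B (47 counts) and D (9 counts). These 2 were above every WT library. Whether the targeted allele leaves a transcript or these libraries are mixed was not tested, so libraries are called labelled Gfra2-/- below.

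On the mitochondrial chromosome (GRCm38, GENCODE M21) the members lie in 2 stretches. mt-Nd1 (chrM:2751-3707) and mt-Nd2 (chrM:3914-4951) follow the rRNA genes. mt-Nd3 (chrM:9459-9806) is followed by mt-Nd4l (chrM:9877-10173), mt-Nd4 (chrM:10167-11544) and mt-Nd5 (chrM:11742-13565), all read from the plus strand. mt-Nd6 (chrM:13552-14070) is the only member read from the minus strand, and its mRNA is known to lack a long poly(A) tail, while the cDNA here was primed with oligo-dT. Each gene is a single exon. The counting ignored strand, so reads of mt-Nd6 and of antisense RNA across it, which the precursor of the other strand contains, cannot be told apart, and the same holds for the other members. The first 80 bases of the pair of genes on which the results turn most are shown from the GENCODE M21 transcripts, 5′ to 3′, with the start codon in capitals:
mt-Nd2, chrM:3914-3993: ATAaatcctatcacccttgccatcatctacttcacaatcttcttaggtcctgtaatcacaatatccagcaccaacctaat
mt-Nd6, chrM:13991-14070, minus strand: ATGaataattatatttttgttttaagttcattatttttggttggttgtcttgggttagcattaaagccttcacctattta

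The members differed in level by more than 3 orders of magnitude. Levels of different genes are compared as CPM per kb of gene length. Over the 15 libraries the median was 4819 CPM per kb for mt-Nd1, 2003 for mt-Nd5, 1715 for mt-Nd6, 1460 for mt-Nd4 and 1186 for mt-Nd2. It was 9.64 for mt-Nd3 and 2.09 for mt-Nd4l. The ranges of neighbours in this order overlapped among the first 5 and again between mt-Nd3 and mt-Nd4l, but no library of mt-Nd2 (512 to 6160) came near the highest of mt-Nd3 (15.4).

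The weakly counted members have near-identical copies in the nuclear genome. The authors' alignment kept reads with a single position, and of all 50-base windows of mt-Nd3, the length of the reads, 98.0% were also found in other annotated transcripts. This share was 98.8% for mt-Nd4l, 62.2% for mt-Nd4, 8.19% for mt-Nd2, 7.61% for mt-Nd5 and 0 for mt-Nd1 and mt-Nd6. The copies of mt-Nd3, mt-Nd4l and mt-Nd4 are the pseudogenes Gm28438 (chr1:24612775-24613119), Gm10222 (chr1:24612407-24612700) and Gm28439 (chr1:24611535-24612410), which lie side by side on the minus strand of chromosome 1. Gm28438 differs from mt-Nd3 by a single substitution over 345 bases, T3C, counted from the 5′ end of the gene. Gm10222 (294 bases) and Gm28439 (876 bases) have 0 differences from the genes over their length. The beginning of mt-Nd3 and its copy is shown with the differing base in capitals:
mt-Nd3, chrM:9459-9538: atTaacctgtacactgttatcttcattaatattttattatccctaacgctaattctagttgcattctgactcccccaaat
Gm28438, chr1:24613040-24613119, minus strand: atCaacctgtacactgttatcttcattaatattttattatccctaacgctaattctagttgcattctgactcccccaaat

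mt-Nd3, a small subunit beside the joint of both arms, had 16, 44, 22 and 41 counts in WT endosteal, 4, 16, 4 and 2 in WT central, 53, 22, 32 and 18 in Gfra2-/- endosteal and 19, 36 and 21 in Gfra2-/- central libraries A to D. mt-Nd4l had 0, 7, 8 and 2 counts, then 2 in each WT central library, then 15, 5, 6 and 7, and 7, 6 and 6. The copy lacks only 6 of the 299 windows of mt-Nd3, while every window of mt-Nd4l is shared with its copy or touches mt-Nd4. Which reads gave these counts was not examined. The copies were counted as weakly, Gm28438 with 1 to 14 and Gm10222 with 2 to 42 counts per library, so the split between gene and copy is uncertain. mt-Nd4l did not pass the filter on low counts in the edgeR fits of 2 groups, and DESeq2, which kept it, did not call it in any of the 4 comparisons.

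For mt-Nd4, Gm28439 covers the first part of the gene only. The edge of the copy is shown with the bases past its end in capitals:
mt-Nd4, bases 837 to 916, chrM:11003-11082: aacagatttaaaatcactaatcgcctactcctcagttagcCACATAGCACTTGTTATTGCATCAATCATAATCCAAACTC
The unshared windows lie between base 828 and the end of the gene (base 1378). Per 1000 usable windows, those that are unshared and clear of other genes, mt-Nd4 had a median of 4008 CPM, against 5090 for mt-Nd1, 2246 for mt-Nd5, 1952 for mt-Nd6 and 1359 for mt-Nd2. On this scale mt-Nd4 stood above mt-Nd5 and mt-Nd6, in place of below them. Of the other mitochondrial mRNAs, mt-Co2, mt-Co3 and mt-Atp6, of which at least 99.5% of windows are shared, had medians of 17.5, 23.4 and 42.3 CPM per kb. mt-Atp8, of which no window was found in an annotated transcript, had 9.45 CPM per kb. It lies between mt-Co2 and mt-Atp6, whose copies are Gm28661 (chr1:24614885-24615565) and Gm10925 (chr1:24613974-24614651). The genome between these copies was not searched, so whether mt-Atp8 has a copy there is not known. As only annotated transcripts were searched, the shares are lower bounds.

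**Figure D1:**
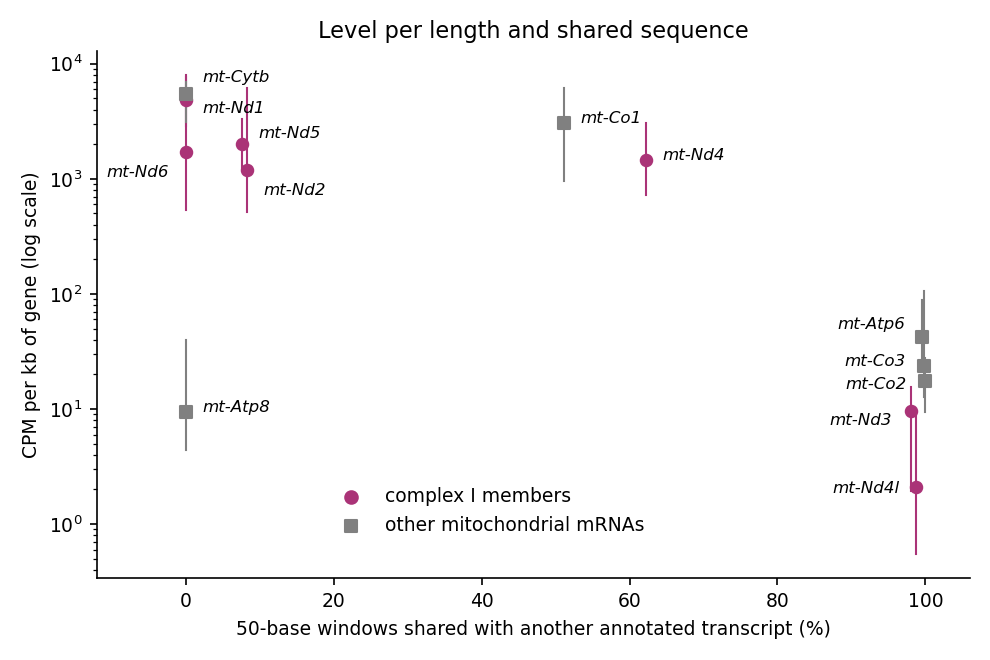
Level per length of the 13 mitochondrial mRNAs (CPM per kb, log scale; point, median of 15 libraries; line, lowest to highest library above 0) against the share of their 50-base windows that another annotated transcript holds. mt-Nd3 and mt-Nd4l, with 98.0% and 98.8% of windows shared, lie far below the other 5 members. mt-Atp8 is weak with no window found in an annotated transcript, but the genome outside annotated transcripts was not searched.

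Members also share bases with each other. The end of mt-Nd4l overlaps the start of mt-Nd4 by 7 bases, and the end of mt-Nd5 overlaps the end of mt-Nd6 by 14 bases on the other strand. A read across such an overlap cannot be given to a single gene. The shared bases are in capitals:
mt-Nd4l, bases 218 to 297, chrM:10094-10173: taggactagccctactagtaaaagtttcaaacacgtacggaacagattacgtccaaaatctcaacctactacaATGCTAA
mt-Nd5, bases 1745 to 1824, chrM:13486-13565: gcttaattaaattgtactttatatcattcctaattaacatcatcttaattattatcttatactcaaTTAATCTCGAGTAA
Of the 50-base windows of mt-Nd5 and mt-Nd6, 0.789% and 2.98% touch another gene.

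The order of the members was not the same in every group. In WT central HSCs mt-Nd1 had a median of 6656 CPM per kb, followed by mt-Nd6 (5585) and mt-Nd2 (4487), whose ranges overlapped. mt-Nd4 (2617) and mt-Nd5 (2542) came last, and no library of mt-Nd4 (2190 to 3083) reached the lowest of mt-Nd2 (3352). Per 1000 usable windows this was turned round, since mt-Nd4 then had a median of 7183 CPM in WT central HSCs (6012 to 8464), against 7031 for mt-Nd1, 6356 for mt-Nd6, 5140 for mt-Nd2 and 2852 for mt-Nd5, and only mt-Nd5 did not overlap with it. Per kb, in Gfra2-/- endosteal HSCs mt-Nd1 (3727) was followed by mt-Nd5 (1619), mt-Nd4 (871), mt-Nd6 (869) and mt-Nd2 (634). The ranges of mt-Nd4 (729 to 1293), mt-Nd6 (538 to 1144) and mt-Nd2 (512 to 734) overlapped there, and so did those of mt-Nd5 and mt-Nd4. WT endosteal and Gfra2-/- central libraries shared the order mt-Nd1, mt-Nd5, mt-Nd6, mt-Nd4, mt-Nd2, in which only mt-Nd1 stood clear of its neighbour.

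mt-Nd2, a subunit of the proton-pumping membrane arm related to ND4 and ND5, and mt-Nd6 spanned the widest range of the 5 well counted members. mt-Nd2 had 2513, 1231, 1130 and 1637 CPM in WT endosteal libraries and 4572, 4743, 6394 and 3479 CPM in WT central libraries. In libraries labelled Gfra2-/- it had 762, 595, 721 and 531 CPM in endosteal and 572, 1136 and 1435 CPM in central HSCs. The 4 WT central libraries were above every other library, and the 4 Gfra2-/- endosteal libraries were below every WT library. The highest library held 12.0 times the level of the lowest.

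mt-Nd6, a membrane arm subunit, followed the same order of groups. It had 2051, 746, 645 and 1216 CPM in WT endosteal, 3235, 2562, 3951 and 2242 in WT central, 593, 441, 461 and 279 in Gfra2-/- endosteal and 552, 890 and 995 in Gfra2-/- central libraries. Again all WT central libraries lay above all others and all Gfra2-/- endosteal libraries below all WT libraries, with a span of 14.1 times.

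mt-Nd1, which forms much of the ubiquinone-binding site, was more even, at 2740 to 7681 CPM, a span of 2.80 times. It had 4935, 4612, 5553 and 5055 CPM in WT endosteal, 6448, 6292, 7681 and 3917 in WT central, 4905, 2740, 3617 and 3517 in Gfra2-/- endosteal and 2790, 3926 and 3217 in Gfra2-/- central libraries. WT central library D was below all WT endosteal libraries, so these groups overlapped. mt-Nd5, a proton-pumping subunit at the tip of the membrane arm, spanned 2.66 times, with 3807, 3868, 4108 and 2670 CPM in WT endosteal, 4659, 6034, 4615 and 3795 in WT central, 3490, 2265, 3268 and 2639 in Gfra2-/- endosteal and 2709, 3473 and 3653 in Gfra2-/- central libraries.

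mt-Nd4, a further proton-pumping subunit, lay between these patterns with a span of 4.23 times. It had 2682, 1903, 2012 and 2302 CPM in WT endosteal, 3819, 3392, 4249 and 3018 in WT central, 1782, 1005, 1208 and 1192 in Gfra2-/- endosteal and 1348, 2256 and 1919 in Gfra2-/- central libraries. All WT central libraries were above the rest, and Gfra2-/- endosteal libraries were below all WT libraries.

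**Figure D2:**
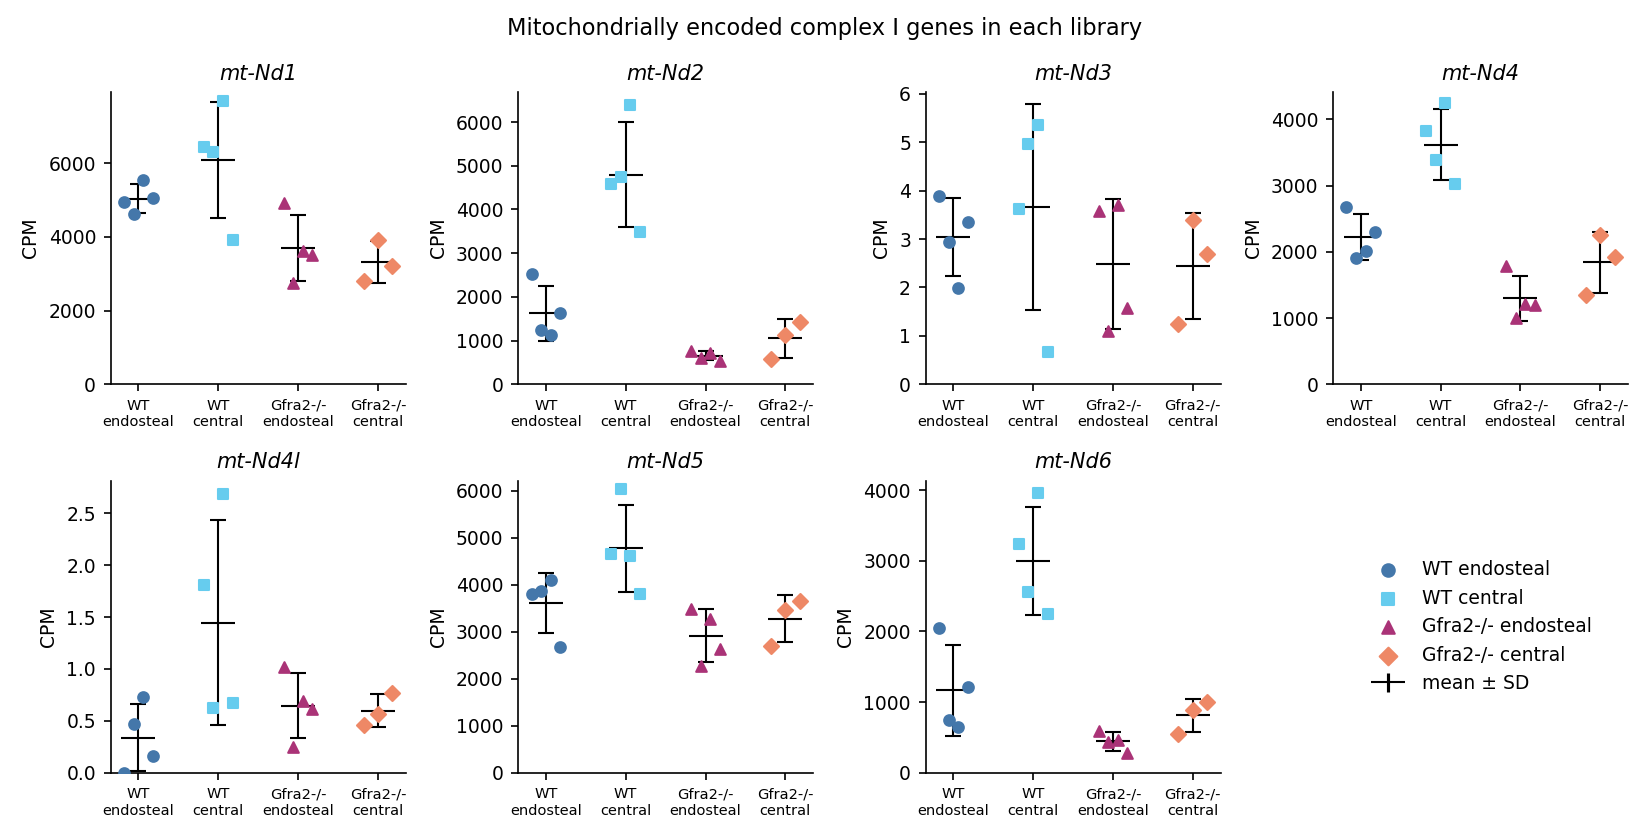
CPM of each member in each of the 15 libraries by group (points), with the group mean and SD (black). mt-Nd2 and mt-Nd6 are highest in the 4 WT central libraries and lowest in Gfra2-/- endosteal libraries, while mt-Nd1 and mt-Nd5 span less than 3 times and mt-Nd3 and mt-Nd4l stay below 6 CPM.

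In bulk pools, fewer cells of a type and less RNA per cell cannot be told apart. The pattern of mt-Nd2 and mt-Nd6 also moved with the depth of the libraries. The 5 libraries with the fewest gene counts, the 4 WT central libraries and WT endosteal A, were the 5 highest for mt-Nd2, mt-Nd4 and mt-Nd6, and 3 of them were among the 5 highest for mt-Nd1 and mt-Nd5. Counts of mt-Nd2 ranged from 4769 to 20012 while the gene counts of the libraries spanned 22.4 times. Counts of mt-Nd1 ranged from 5729 to 72509. After counts were thinned to the total of the smallest library, the log2 fold changes of mt-Nd2 were -1.68 for endosteal against central WT HSCs and -2.27 for central Gfra2-/- against WT HSCs, against -1.58 and -2.22 without thinning. Random thinning keeps the expected share of each gene within its library, so it cannot tell a pattern of depth from a difference between groups. What else differs between deep and shallow libraries, such as the amount of cDNA, was not tested.

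**Figure D3:**
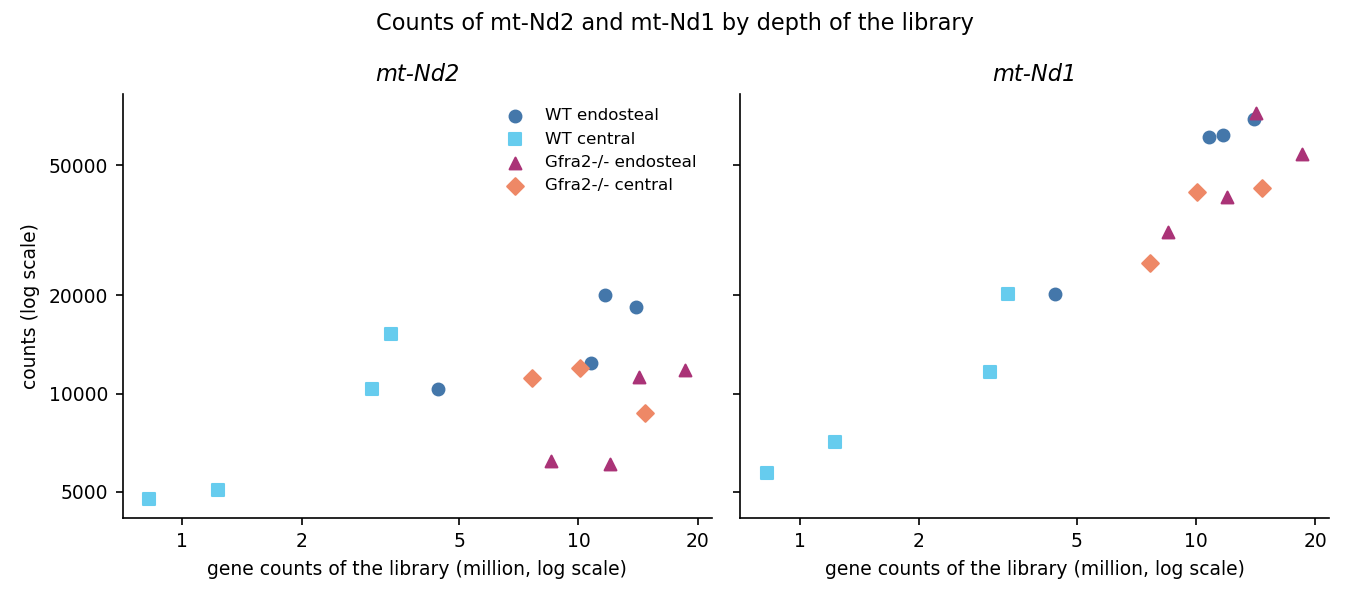
Counts of mt-Nd2 (left) and mt-Nd1 (right) against the gene counts of each library, both on log scales, coloured by group. mt-Nd2 counts stay between 4769 and 20012 over the whole range of depth, while mt-Nd1 counts reach 72509 in a Gfra2-/- endosteal library.

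The make-up of mitochondrial mRNA does not depend on the scaling between libraries. The 7 members together took 60.4%, 49.0%, 46.7% and 52.2% of the counts on the 13 mitochondrial mRNAs in WT endosteal libraries and 73.8%, 70.6%, 80.5% and 67.0% in WT central libraries. They took 40.8%, 45.9%, 40.3% and 32.8% in Gfra2-/- endosteal and 39.9%, 46.4% and 52.6% in Gfra2-/- central libraries. WT central libraries were thus above all others, and Gfra2-/- endosteal libraries were below all WT libraries. All these mRNAs together varied less, from 1.64% to 3.12% of gene counts.

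mt-Nd2 and mt-Nd6 together took 22.4% to 31.0% in WT central, 6.16% to 17.2% in WT endosteal, 3.26% to 6.75% in Gfra2-/- endosteal and 5.63% to 11.4% in Gfra2-/- central libraries. mt-Nd2 alone took 15.7% ± 2.32 (SD, n = 4) of mitochondrial mRNA counts in WT central HSCs, 6.23% ± 2.45 (SD, n = 4) in WT endosteal HSCs, 2.96% ± 0.734 (SD, n = 4) in Gfra2-/- endosteal and 4.70% ± 1.94 (SD, n = 3) in Gfra2-/- central HSCs. mt-Nd6 took 9.83% ± 1.71 (SD, n = 4), 4.47% ± 2.46 (SD, n = 4), 2.02% ± 0.715 (SD, n = 4) and 3.66% ± 0.956 (SD, n = 3) in the same groups. mt-Nd1 ranged from 14.0% to 23.0% and mt-Nd5 from 10.6% to 18.5% over all libraries. Shares add up to 100%, and those of mt-Co1 and mt-Cytb went the other way. mt-Co1, the core subunit of complex IV, took 4.39% to 9.28% in WT central, 15.5% to 25.3% in WT endosteal, 30.8% to 38.4% in Gfra2-/- endosteal and 22.1% to 34.2% in Gfra2-/- central libraries. mt-Cytb, of complex III, took 14.7% to 23.4% in WT central and 23.8% to 28.3% in WT endosteal libraries, which did not overlap, 23.0% to 28.5% in Gfra2-/- endosteal and 23.6% to 25.6% in Gfra2-/- central libraries.

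**Figure D4:**
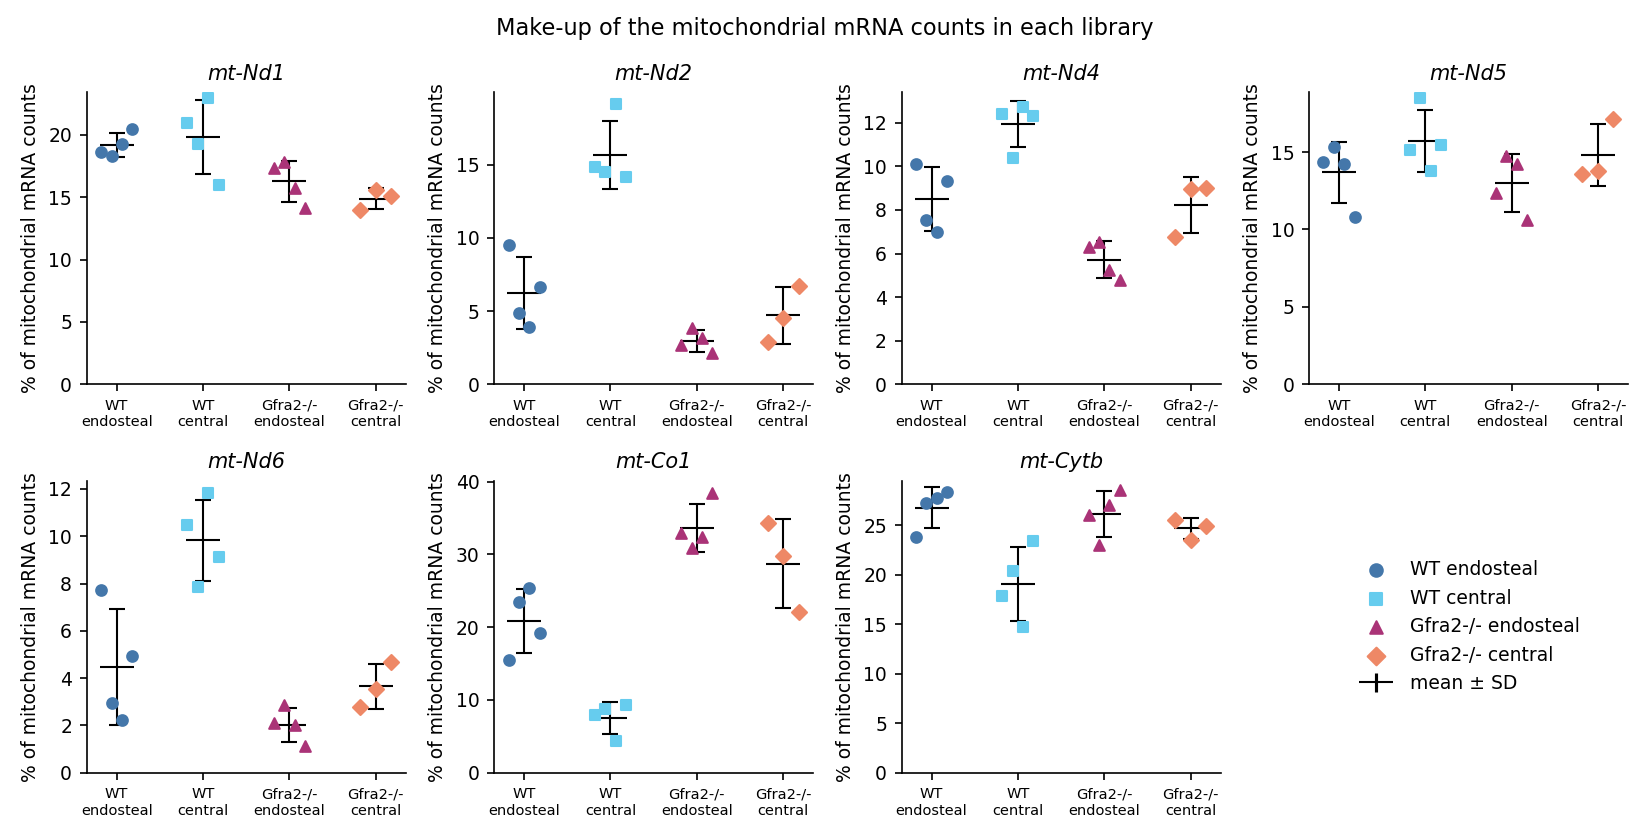
Share of the counts on the 13 mitochondrial mRNAs that each of 5 members, mt-Co1 and mt-Cytb took in each library (points), with group mean and SD (black). The shares of mt-Nd2 and mt-Nd6 are highest, and that of mt-Co1 lowest, in WT central libraries.

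Ratios between members of the same strand and of both strands showed this too. There were 0.509, 0.267, 0.204 and 0.324 mt-Nd2 counts per mt-Nd1 count in WT endosteal libraries and 0.709, 0.754, 0.832 and 0.888 in WT central libraries, although both genes lie next to each other and are read from the same precursor. The ratio was 0.155, 0.217, 0.199 and 0.151 in Gfra2-/- endosteal and 0.205, 0.289 and 0.446 in Gfra2-/- central libraries. The ratio of mt-Nd6 to mt-Nd2, on opposite strands, kept to 0.526 to 0.966 in all 15 libraries. The ratio of mt-Nd5 to mt-Nd1 ranged from 0.528 to 1.14.

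The gene most like mt-Nd2 was mt-Nd6. Likeness was measured as the root-mean-square difference of log2(CPM + 1), each gene centred on its own mean, over 15 libraries and 15416 genes, and a small difference means a like pattern. It was 0.23 for mt-Nd6, the smallest of all genes, against a median of 1.71. It was 0.50 for mt-Co3 of complex IV, at rank 51 and ahead of the other members, and 0.85 for mt-Atp6 of complex V, at rank 462. mt-Nd4 (0.60) was at rank 98, mt-Nd1 (0.87) at rank 507 and mt-Nd5 (0.90) at rank 598, while mt-Co1 (1.89) was at rank 9814. Off the mitochondrial chromosome the genes most like it were Rpsa-ps1 (0.29), a pseudogene of a ribosomal protein gene, Rplp1 (0.34), an acidic protein of the large ribosomal subunit, the predicted genes Gm3699 (0.34) and Gm5321 (0.34), and Nrgn (0.34), which encodes neurogranin. Rplp1 had 1937 to 3026 CPM in WT central libraries and 351 to 636 in Gfra2-/- endosteal libraries. Rpsa-ps1 had only 12 to 52 counts per library and Gm5321 only 3 to 29. As these points share their libraries, they also share the differences in depth.

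In libraries labelled Gfra2-/-, the comparison of endosteal with central HSCs asks whether the compartments differ without the receptor. No member passed the threshold. The edgeR quasi-likelihood test at an FDR of 0.1 called 0% of 13860 genes and 0 of the 6 tested members. Without adjustment, 664 genes passed a threshold of 0.05, and 2.05% of genes passed it and were lower in endosteal HSCs. mt-Nd6 was the only member among them, with a log2 fold change of -0.88 (SE 0.30, FDR = 0.945 from edgeR). mt-Nd2 had -0.69 (SE 0.31, FDR = 0.999 from edgeR) and mt-Nd4 -0.51 (SE 0.26, same FDR), while mt-Nd5 had -0.17 (SE 0.20). mt-Nd1 had 0.16 (SE 0.22) and mt-Nd3 0.023 (SE 1.02). Both turned negative with spike-in scaling, which moved the median of all genes to -0.60. Relative to that median mt-Nd1 had 0.16 and mt-Nd3 -0.22. The CPM of every member overlapped between these compartments, where 3.67% of genes were lower in all endosteal libraries. By share of mitochondrial mRNA, 1 of 7 members did not overlap, mt-Nd4, at up to 6.54% in endosteal and from 6.75% in central libraries. mt-Co3, which is not a member, did not overlap either, at up to 0.0654% and from 0.0732%. This measure covers only the 13 mitochondrial mRNAs, so no share over all genes goes with it. DESeq2 at the same threshold called 2.75% of genes and 0 of 7 members. Without the endosteal libraries B and D, mt-Nd2 had -0.50, mt-Nd6 -0.63 and mt-Nd5 0.043. mt-Nd2 had -0.98 without central library A and -0.39 without central library C, so a single library decides its size.

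Endosteal HSCs of both genotypes had libraries of more similar depth, 4416648 to 14003634 gene counts in WT and 8519094 to 18550008 in libraries labelled Gfra2-/-. mt-Nd2 was 2.50 times higher on average in WT libraries, with a log2 fold change of Gfra2-/- against WT of -1.31 (SE 0.27, FDR = 0.392 from edgeR). mt-Nd6 was 2.62 times higher in WT, with -1.39 (SE 0.38, FDR = 0.645 from edgeR). mt-Nd4 had -0.77 (SE 0.21, FDR = 0.645 from edgeR) and mt-Nd1 -0.44 (SE 0.18, FDR = 0.737 from edgeR). mt-Nd5 had -0.31 (SE 0.20) and mt-Nd3 -0.28 (SE 0.82), the latter 0.25 without the libraries B and D. All 6 tested members were thus below 0, with a median of -0.61 against 0.030 over all genes.

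No gene passed the threshold in this comparison, since edgeR called 0% of 12970 genes at an FDR of 0.1. Without adjustment, 868 genes passed a threshold of 0.05. The 4 members mt-Nd1, mt-Nd2, mt-Nd4 and mt-Nd6 passed it and were lower in libraries labelled Gfra2-/-, as were 3.52% of all genes. mt-Nd2, mt-Nd4 and mt-Nd6 had no overlap in CPM between the genotypes, where 3.55% of genes were lower in this way. By share of mitochondrial mRNA mt-Nd6 did overlap, at up to 2.87% in libraries labelled Gfra2-/- and from 2.24% in WT libraries. mt-Nd1, mt-Nd2 and mt-Nd4 did not overlap by share. DESeq2 called 3.71% of genes, among them mt-Nd2 (adjusted p = 0.0168) and mt-Nd6 (adjusted p = 0.0991). Over the edgeR alternatives the FDR ranged from 0.392 to 0.9996 for mt-Nd2 and from 0.447 to 0.9996 for mt-Nd6. Without WT endosteal library A, the shallowest and highest of its group, mt-Nd2 had -1.04 and mt-Nd6 -0.98. Without libraries B and D, which have the highest Gfra2 counts, they had -1.14 and -1.14.

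Between endosteal and central HSCs of WT mice, a comparison that led to the choice of the family, the members are described without a test. Log2 fold changes were -1.58 (SE 0.27) for mt-Nd2, -1.38 (SE 0.34) for mt-Nd6, -0.72 (SE 0.19) for mt-Nd4, -0.42 (SE 0.19) for mt-Nd5, -0.29 (SE 0.19) for mt-Nd1 and -0.25 (SE 0.95) for mt-Nd3. mt-Nd2, mt-Nd4 and mt-Nd6 were lower in all endosteal libraries, as were 2.09% of genes. edgeR called 0% of 11181 genes (882 at an unadjusted p under 0.05) and DESeq2 4.49%. Since the family was chosen on these values, calls of its members here say nothing further about them. mt-Co1 went the other way, with 1.27 (SE 0.23).

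Between central HSCs of the genotypes, the comparison that first drew attention to the family, the differences were the widest. The log2 fold changes of Gfra2-/- against WT were -2.22 (SE 0.32) for mt-Nd2, -1.91 (SE 0.28) for mt-Nd6, -1.001 (SE 0.22) for mt-Nd4, -0.90 (SE 0.22) for mt-Nd1, -0.57 (SE 0.19) for mt-Nd5 and -0.57 (SE 1.22) for mt-Nd3. mt-Nd2, mt-Nd4, mt-Nd5 and mt-Nd6 were lower in all libraries labelled Gfra2-/-, as were 4.44% of genes. edgeR called 6 of 11772 genes (0.0510%) and DESeq2 5.14%. Of the members, those that led to the choice, mt-Nd2 and mt-Nd6, are among the 6 by construction, and this was so in none of the fits that left out a WT library or Gfra2-/- library A or B. mt-Co1 was higher in libraries labelled Gfra2-/- (log2 fold change 1.47, SE 0.23, FDR = 0.0871 from edgeR). Without WT central library C, the shallowest, mt-Nd2 had -2.05.

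The 4 comparisons share their libraries in pairs, so their values are not independent. The term for the interaction of genotype and compartment was positive for all 7 members, against a median of -0.12 over all genes. With spike-in scaling that median was -2.16 and all 7 were negative, 6 of them still above the median. Without it the term was 0.88 (SE 0.42) for mt-Nd2, 0.49 (SE 0.49) for mt-Nd6 and 0.20 (SE 0.30) for mt-Nd4, and edgeR called 0% of 15416 genes (1074 at an unadjusted p under 0.05, and 240 by DESeq2).

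**Figure D5:**
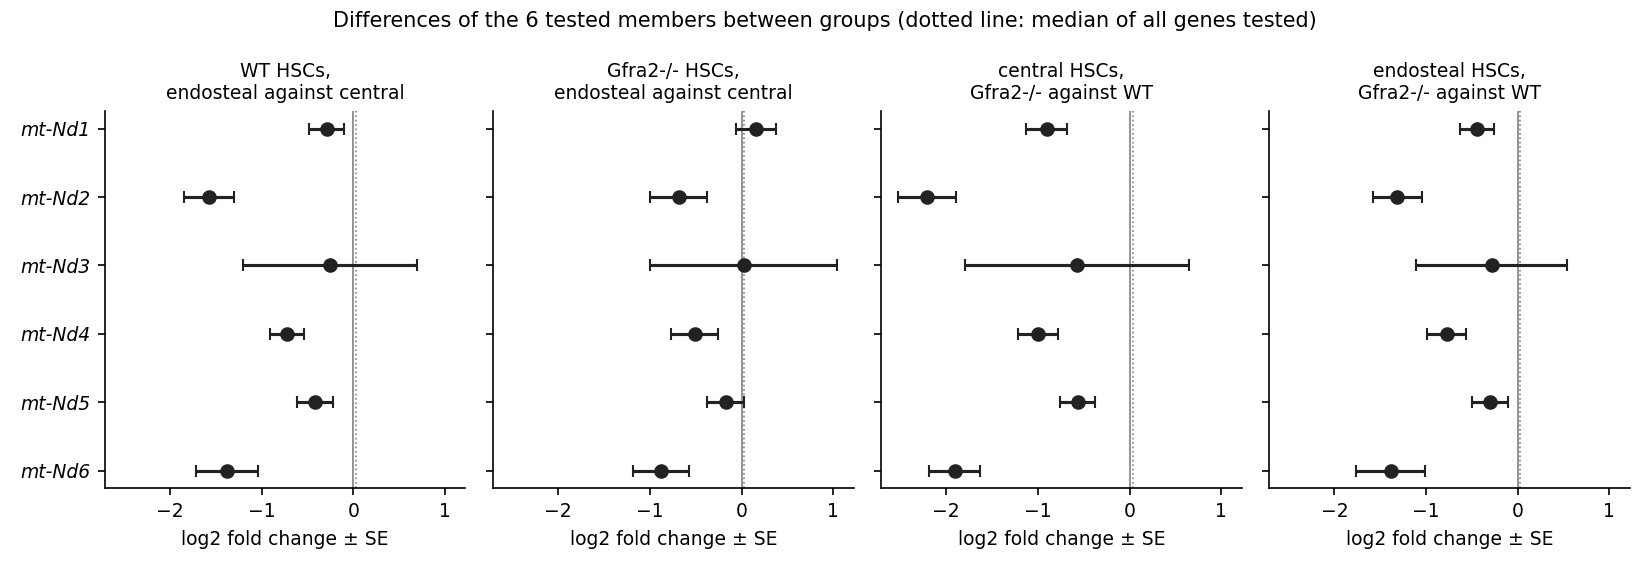
Log2 fold changes of the 6 tested members (edgeR) with their standard errors in the 4 comparisons of 2 groups. mt-Nd2 and mt-Nd6 lie furthest below 0 in each panel, from -0.69 to -2.22 for mt-Nd2, and the dotted line marks the median of all genes tested.

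Scaled to the spike-in RNAs, which moves all genes, mt-Nd2 and mt-Nd6 had the lowest values of the members relative to all genes in each comparison of 2 groups, but signs changed. In WT HSCs the median of all genes was then 1.77 higher (log2) in endosteal than in central libraries, all 6 tested members were above 0, and mt-Nd2 had 0.36, which is -1.41 relative to that median. In central HSCs the median was 1.63, all tested members but mt-Nd2 (-0.14) were above 0, and mt-Nd2 and mt-Nd6 had -1.77 and -1.56 relative to the median. In endosteal HSCs, where the median was -0.20, they had -1.39 and -1.62 relative to it. Between the compartments of Gfra2-/- mice they had -1.06 and -1.31 relative to a median of -0.60. The 4 libraries with little spike-in RNA, 1 of each group, had 210 to 891 mt-Nd2 counts per 1000 spike-in counts, and the other 11 had 34.5 to 142.

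No nuclear gene of complex I was called by edgeR in these comparisons. The 7 core subunits of the nuclear genome carry the NADH site and the iron-sulfur clusters. Between endosteal Gfra2-/- and WT HSCs, 4 of them were lower and 3 higher, with a median of -0.31. Of 29 measured supernumerary subunits, which surround the core, 26 were lower and 3 higher (median -0.50, against 0.030 over all genes, log2 scale). Of all 12970 genes tested, 868 had an unadjusted p under 0.05 from edgeR, and of these subunits 5. Those with the smallest p were Ndufb7 (log2 fold change -1.26, SE 0.38, FDR = 0.685 from edgeR) and Ndufb9 (-0.72, SE 0.25, FDR = 0.737). Of the core subunits the smallest p was that of Ndufs7 (-0.61, SE 0.27, FDR = 0.741 from edgeR). Of 14 assembly factors, 8 were lower and 6 higher, led by Tmem186 (1.06, SE 0.68) and Ndufaf6 (-2.27, SE 1.51). In endosteal HSCs the supernumerary subunits together had 1697 to 2491 CPM in Gfra2-/- and 2650 to 3540 CPM in WT libraries, without overlap. The sums of the core subunits and of the assembly factors overlapped between these groups. How often sums of other gene lists separate was not tested.

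Between the compartments of Gfra2-/- mice, 18 supernumerary subunits were lower and 11 higher in endosteal HSCs, with a median of -0.27, and no gene of the list passed an unadjusted p under 0.05. Ndufb2 (1.07, SE 0.54) and Ndufb7 (-0.73, SE 0.40) had the smallest p. The core subunits split 4 to 3, led by Ndufs1 (0.58, SE 0.35) and Ndufs8 (0.48, SE 0.32), and of the assembly factors 4 were lower and 10 higher, led by Timmdc1 (1.53, SE 0.92) and Ndufaf3 (1.26, SE 0.76). In the comparisons that led to the family, 19 of 29 supernumerary subunits were lower in endosteal than in central WT HSCs, with Ndufa2 (-1.52, SE 0.38) and Ndufa6 (-0.86, SE 0.39) first, while all 7 core subunits were higher, with Ndufs3 (3.84, SE 1.05) first. In central HSCs 24 of 29 were lower in libraries labelled Gfra2-/-, with Ndufa2 (-2.16, SE 0.44) and Ndufb5 (-1.76, SE 0.46) first, and of the core subunits 3 were lower and 4 higher, with Ndufs3 (3.37, SE 1.23) and Ndufv2 (0.83, SE 0.49) first. Assembly factors were led by Nubpl (3.47, SE 1.33) and Ndufaf4 (1.84, SE 0.83) in the WT and by Ndufaf4 (1.51, SE 0.92) and Nubpl (2.45, SE 1.53) in the central comparison.

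Genes of mitochondrial transcription and RNA handling, which make, cut and stabilise these mRNAs, went both ways. Of 22 measured genes, 11 were lower and 11 higher in endosteal Gfra2-/- against WT HSCs, led by Fastkd2 (-1.61, SE 0.52, FDR = 0.737 from edgeR), a protein of mitochondrial RNA granules, and Polrmt (-2.04, SE 0.87, same FDR), the mitochondrial RNA polymerase. Between the compartments of Gfra2-/- mice 7 were lower and 15 higher, led by Grsf1 (0.94, SE 0.54) and Tfb2m (1.70, SE 1.04). Lrpprc, which stabilises mitochondrial mRNAs together with Slirp, had -1.48 (SE 0.44) in endosteal against central WT HSCs and -1.92 (SE 0.45) in central Gfra2-/- against WT HSCs. Polrmt (2.10, SE 1.05) and Slirp (-1.77, SE 0.71) were second in these comparisons. In them 12 of 22 and 14 of 22 genes of the list were lower.

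The other mitochondrial mRNAs went both ways. In the comparisons that led to the family, 4 of the 6 were lower in endosteal than in central WT HSCs (median -0.37) and 5 of 6 in central Gfra2-/- against WT HSCs (median -0.53), with medians of the members of -0.57 and -0.95. Of the 6 mRNAs of complexes III to V, 4 were lower in endosteal Gfra2-/- against WT HSCs, with a median of -0.27, led by mt-Co1 (0.50, SE 0.25, FDR = 0.750 from edgeR) and mt-Cytb (-0.21, SE 0.22). Between the compartments of Gfra2-/- mice 3 were lower, led by mt-Co1 (0.29, SE 0.26) and mt-Co3 (-0.68, SE 0.73). mt-Co3, which is almost wholly shared with its copy, had -1.64 (SE 0.70) between the WT compartments and -1.59 (SE 0.77) between the genotypes in central HSCs. The rRNAs mt-Rnr1 (-0.28, SE 0.39) and mt-Rnr2 (-0.063, SE 0.26) in endosteal Gfra2-/- against WT HSCs, and -0.45 (SE 0.36) and -0.26 (SE 0.30) between the compartments of Gfra2-/- mice, were not called either. In the comparisons that led to the family mt-Rnr2 had -0.63 (SE 0.14) and -0.45 (SE 0.14), and mt-Rnr1 -0.60 (SE 0.30) and -0.44 (SE 0.25).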

How the data were processed

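RNA-Seq libraries of 15 HSC pools were analysed, made with Smart-seq2 (oligo-dT priming, PCR without molecular identifiers, so depth covers counting error only). Per the labels and methods, the authors aligned single-end 50-base reads to mm10 (GRCm38, Ensembl release 81) with GSNAP, kept reads with 1 position, counted them with HTSeq 0.5.3p3 without regard to strand, and deposited raw counts in a table of 46078 genes, with 92 spike-ins and 5 categories of reads not given to a gene. Spike-in and summary rows stayed out of library sizes and tests. Of 16 labelled samples, 15 have a mapped column, and 1 column of per-sample values was not used. Columns were assigned to groups by the list of libraries in the supplement of the study. Depth was 826487 to 18550008 gene counts.

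Each comparison used edgeR 4.0.16 (R 4.3.3): the libraries of both groups, filterByExpr, TMM, the quasi-likelihood test, Benjamini-Hochberg adjustment over all genes tested and an FDR of 0.1. SE is the fold change divided by the square root of F. CPM are counts scaled to a TMM-adjusted library total of 1000000. The test was tested on simulated data. Alternatives were DESeq2 1.42.0, other scalings, filters, thinned counts, an FDR of 0.05, 1 fit for all groups, and libraries left out. Of the study's cut-offs, over 1500000 reads and under 20% mitochondrial reads were applied (14 of 15 libraries pass). Reads on genes, on no feature or ambiguous, without spike-ins, stood in for the uniquely mappable reads of the study. The cut-off on high-coverage genes was not applied, since the study does not define coverage. Of the genes in the table, 45143 were found in GENCODE M21. Shared windows were sought among its transcript sequences, not in the genome as first planned. Values were summarised with Python 3.11.15, numpy 2.4.6 and pandas 2.3.3, and drawn with matplotlib 3.10.9.

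The members and gene lists were chosen with earlier results of these data known. Named were all 7 members, the other mitochondrial mRNAs and rRNAs, the 2 genes with the smallest p of each list in each comparison, the 5 genes off the mitochondrial chromosome most like mt-Nd2, and Gfra2. One gene that this rule names is not reported here.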

Additional observations from a re-analysis of the deposited data

Results flagged for a closer look

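Among 42 groups of 4 libraries, the share or CPM of a member in a single library stood apart from the other libraries of its group once, and chance alone gives about 1 in 20. mt-Nd2 took 19.1% of the mitochondrial mRNA counts in WT central library C, and the gap to the next library was 0.867 of the range of the group, above Dixon's critical ratio for 4 values. This library has the fewest gene counts of all (826487) and is the library that misses the cut-off on reads. Groups of 3 were not examined in this way.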

How the results depend on the processing

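Members called by edgeR at an FDR of 0.1 were counted again under each alternative. The WT and central comparisons led to the choice of the family, so their counts show how calls move with the settings and support nothing about the members. Between the WT compartments 0 were called, against 2 with DESeq2 and without a filter on low counts, 1 with at least 10 counts in every library, with thinned counts and with all 4 groups in 1 fit, and 0 to 2 when each library was left out. Between central HSCs of the genotypes 2 were called, against 3 with DESeq2, 4 without the filter and 1 with all 4 groups in 1 fit. The count was 0 with an FDR of 0.05, with spike-in scaling and with scaling on mitochondrial mRNA. It was also 0 with only libraries past the cut-offs and with only libraries of at least 0.5% spike-in. It was 0 to 2 when each library was left out. Between endosteal HSCs of the genotypes 0 were called, against 2 with DESeq2. Genes called overall were 0, 0, 6 and 0 in the 4 comparisons and 0 for the interaction with edgeR, against 606, 395, 725, 534 and 240 with DESeq2. They were 58 and 134 without the filter, 11 and 29 with at least 10 counts in every library and 22 and 4 with all groups in 1 fit, in the WT and central comparisons. With spike-in scaling 41 genes were called between the compartments of Gfra2-/- mice, 5 in endosteal HSCs and 171 for the interaction. The causes were not tested.

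Of the member log2 fold changes under alternatives, 601 were counted as kept, 24 as moved, 2 as stronger and 11 as turned. The 11 do not hold every change of sign. With spike-in scaling, which moves all genes, all 6 tested members changed sign between the WT compartments. So did all tested members but mt-Nd2 in central HSCs, and all 7 members for the interaction. Between the compartments of Gfra2-/- mice, mt-Nd1 turned to -0.43 and mt-Nd3 to -0.82 with spike-in scaling, mt-Nd3 to -0.028 with scaling on mitochondrial mRNA and to -0.039 with a term for the libraries of little spike-in RNA, and mt-Nd5 to 0.043 without the endosteal libraries B and D. With each library left out, mt-Nd1 ranged from -0.0071 to 0.31 and mt-Nd3 from -0.30 to 0.35. In central HSCs mt-Nd6 had 0.069 with spike-in scaling, and in endosteal HSCs mt-Nd3 had 0.25 without the libraries B and D. That term, 1 library in each group, was chosen after seeing the data, and with it mt-Nd2 had -0.64 between the compartments of Gfra2-/- mice and -1.32 between endosteal HSCs, and members called stayed at 0, 0, 2 and 0. Leaving libraries out of the make-up of mitochondrial mRNA was also chosen after seeing the data, and there only mt-Nd4l moved beyond its spread. Scaling on mitochondrial mRNA moved the median of all genes to 0.24, 0.50 and 0.29 in the WT, central and endosteal comparisons, and DESeq2 to -0.30 and -0.24 in the WT and central comparisons.

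Depth limits mt-Nd3 and mt-Nd4l, with at most 53 and 15 counts. No paired analysis was possible because no replicate number stands in the names of the deposited columns.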
